A study of Mus musculus with 3 samples.

Results

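Nephron progenitor transcription factors and markers were followed as 10 genes, Six2, Cited1, Eya1, Eya4, Osr1, Wt1, Pax2, Sall1, Crym and Cd24a, of 19635 genes tested. They were taken by symbol from the platform annotation. Each had 1 oligo, the long probe that stands for a transcript on this array, and a value on all 3 arrays. On each array, kidney RNA from mouse embryos at 13.5 dpc (days post coitum) was hybridised directly against metanephric mesenchyme RNA from embryos at 10.5 dpc. The mice were of the CD1 strain and normal, the tissue was microdissected and pooled over both sexes, and amplified RNA was labelled. The labels do not say how many embryos a pool held, or whether the 3 arrays came from separate pools, so a p-value here covers the spread between arrays alone, and that spread may be technical.

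Every value is the log2 ratio of the array's channels as deposited. Neither the numerator nor the dye of each RNA is given in the sources used here, so the sign places a gene on a side of the ratio and does not say in which tissue it was higher. A log2 ratio of 1 is a 2-fold difference. Tissue labels could be checked only through the sides on which markers lay, since a ratio gives no level. Cdh16, a cadherin of kidney tubules, stood at 3.31 ± 0.48 (mean log2 ratio ± SD, n = 3 arrays), and Hbb-bh1, an embryonic beta-like globin, at -3.95 ± 0.32. Both were picked with values known, and other genes of their lists were less clear. Of 10 tubule genes 9 had a positive mean, and Cubn stood at -1.49 ± 0.47. All 11 red cell genes had a negative mean, but the globin gene Hbb-y stood at -0.062 ± 0.26. In dissected tissue, fewer cells of a type and less RNA per cell cannot be told apart.

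Nephron progenitors are the mesenchymal cells that condense as a cap around each tip of the branching ureteric bud. They renew themselves there, and some are induced to turn into the epithelium of a nephron. A network of DNA-binding proteins and cofactors specifies the metanephric mesenchyme and holds the cap in its undifferentiated state.

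The members are grouped here by the sign and size of their values, although neighbouring groups overlapped in part. The largest difference was 4.05-fold, for Crym. Crym, Wt1, Cited1 and Six2 were positive on every array, with mean log2 ratios between 0.78 and 2.02. Osr1 was negative on every array. Cd24a, Pax2 and Eya1 were positive on every array with means between 0.27 and 0.42 and one array well above the others. Eya4 and Sall1 had arrays of both signs and means nearest 0.

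With limma's test of the mean against 0 and Benjamini-Hochberg adjustment over all genes, 0 of the 10 members passed an adjusted p of 0.05, where 0.00509% of all genes did (1 gene, Slc2a1). That 1 call rested on values at the lowest deposited ratio, 0.01, and was lost with those values left out. With each gene's own SD in place of limma's moderated one, 0 members passed as well. At an unadjusted limma p under 0.05 there were 5 members, against 16.8% of all genes. Those on the positive side were Crym, Wt1, Cited1 and Six2, where the share of all genes was 8.99%, and Osr1 was the member on the negative side, where it was 7.83%. A single sign across the arrays was held by 8 of 10 members, against 41.3% of all genes. On all 3 arrays 7 members were positive, against 21.5% of all genes, and 1 was negative, against 19.9%. A mean of at least 1 in size was held by 3 members, against 5.33% of all genes. The median of the members was 0.36, and that of all genes was 0.0020. The members were chosen with earlier results of these data known, so these counts describe them and are no independent evidence.

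**Figure D1:**
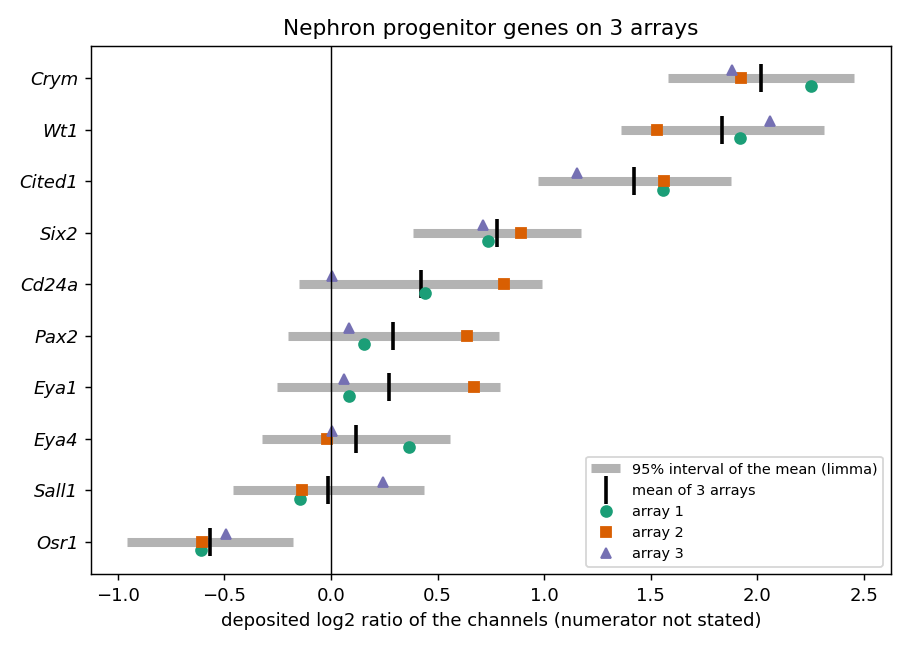
Deposited log2 ratio (x axis, no unit) of each progenitor gene (rows), with 1 symbol per array, a black tick at the mean of 3 arrays and a grey bar for limma's 95% interval of that mean. The intervals of Crym, Wt1, Cited1 and Six2 lie above 0, that of Osr1 lies below 0, and the other 5 span 0.

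Among the factors of the self-renewing cap, Six2, the homeobox factor that keeps progenitors undifferentiated, had 0.74, 0.89 and 0.71 on arrays 1, 2 and 3 (log2 ratio). The 3 arrays lay close together, and the SD of 0.096 was smaller than that of all but 8.0% of genes. The mean was 0.78, with a 95% interval of 0.39 to 1.17, a 1.72-fold difference (limma adjusted p = 0.139). Cited1, a transcriptional co-regulator of the least induced cap cells, had 1.56, 1.56 and 1.15. Array 3 was the lowest, and the size of the mean of Cited1, whichever way the ratio runs, stood at percentile 98.2 of all genes. Its mean of 1.42 ± 0.23 was a 2.68-fold difference (limma adjusted p = 0.107). By the size of its mean Six2 stood at percentile 90.2.

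The promoters of these cap markers are shown because both genes lay on one side on every array, with that of Eya4, a member near 0, for contrast. They run from 250 bases before to 50 after a RefSeq transcript start, 5′ to 3′ on the gene's strand (RefSeq, build GRCm38.p6), at chr17:85688205-85688504 on the minus strand for Six2, chrX:102252132-102252431 on the minus strand for Cited1, the first of 3 listed starts, and chr10:23349894-23350193 on the minus strand for Eya4, the first of 2 starts. Capitals mark matches on either strand to any of 3 motifs. The core of the TATA box was searched as TATAAA. The CCAAT box was searched by the letters of its name. The GC box, the site of Sp-type factors, was searched as GGGCGG.
Six2: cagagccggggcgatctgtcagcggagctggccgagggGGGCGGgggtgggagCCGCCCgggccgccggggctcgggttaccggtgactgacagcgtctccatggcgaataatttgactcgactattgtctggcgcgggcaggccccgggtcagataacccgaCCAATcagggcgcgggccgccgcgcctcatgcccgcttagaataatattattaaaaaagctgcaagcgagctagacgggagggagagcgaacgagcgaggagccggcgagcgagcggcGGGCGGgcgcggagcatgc
Cited1: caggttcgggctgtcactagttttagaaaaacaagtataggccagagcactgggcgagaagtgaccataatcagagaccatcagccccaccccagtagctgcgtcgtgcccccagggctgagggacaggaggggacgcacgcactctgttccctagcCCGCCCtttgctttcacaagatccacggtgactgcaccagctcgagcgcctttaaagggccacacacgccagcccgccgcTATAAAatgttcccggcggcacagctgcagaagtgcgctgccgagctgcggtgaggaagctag
Eya4: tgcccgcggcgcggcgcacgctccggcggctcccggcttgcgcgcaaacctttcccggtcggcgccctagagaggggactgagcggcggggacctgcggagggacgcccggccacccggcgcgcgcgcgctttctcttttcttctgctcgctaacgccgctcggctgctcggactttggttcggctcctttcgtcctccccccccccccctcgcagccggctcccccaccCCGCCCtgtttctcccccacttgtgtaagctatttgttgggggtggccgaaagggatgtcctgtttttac
No matches overlapped. Six2 held 3 GC box matches, of which 1 lay 31 bases after the start. It held 1 CCAAT box match 87 bases before the start, and no TATA box match in this window. Cited1 held 1 TATA box match 13 bases before the start and 1 GC box match, and Eya4 held 1 GC box match 20 bases before the start. These depend on the start shown. The second Cited1 start had a TATA box match 115 bases before it and a CCAAT box match, and the third had no match. Of the 32851 promoters in the table, all of this length, 13.6% held the TATA box letters, 37.4% those of the CCAAT box and 35.7% those of the GC box. The windows held 37 CG dinucleotides in Six2, 18 in Cited1 and 36 in Eya4, against a median of 7 over all promoters. At the other listed starts the number was 14 and 32 for Cited1 and 28 for Eya4. A match is a description of these letters only. Promoters of 5 of the 10 members were matched in the table.

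Wt1, the zinc-finger factor that the mesenchyme needs to survive and that podocytes later keep, had 1.92, 1.53 and 2.06 on arrays 1, 2 and 3. Array 1 and array 3 lay close together, and array 2 gave the lowest value. The mean of 1.84 ± 0.27 was a 3.57-fold difference (limma adjusted p = 0.107). Crym, which encodes a thyroid hormone-binding protein, had 2.25, 1.92 and 1.88, with array 1 the highest. It had the largest mean of the 10 members, 2.02 ± 0.20, a 4.05-fold difference (limma adjusted p = 0.107). By the size of the mean, which does not depend on the direction of the ratio, Crym stood at percentile 99.6 of all genes and Wt1 at 99.4.

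Osr1, an odd-skipped zinc-finger factor, is among the earliest markers of the intermediate mesoderm from which the kidney forms. It had -0.61, -0.60 and -0.49 on arrays 1, 2 and 3. All 3 arrays lay on the negative side, and its SD of 0.067 was the smallest among the members. The mean was -0.57, with a 95% interval of -0.95 to -0.18, a 1.48-fold difference on the opposite side to the cap markers (limma adjusted p = 0.194). By the size of its mean it stood at percentile 81.6 of all genes. Its call at an unadjusted p under 0.05 was lost without array 1 and without array 2, at means of -0.55 and -0.55 in fits with fewer degrees of freedom.

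Because both genes were read on the same arrays, the gap between Osr1 and the cap markers could be taken within each array. Six2 minus Osr1 was 1.34, 1.49 and 1.20 on arrays 1, 2 and 3, a mean of 1.35 ± 0.14 (95% interval 0.99 to 1.71). Cited1 minus Osr1 was 2.16, 2.17 and 1.64, a mean of 1.99 ± 0.30 (95% interval 1.24 to 2.74). In each case 3 of 3 arrays gave the same sign. An exact two-sided sign-flip permutation test gave p = 0.25 for each, the smallest p that 3 arrays allow, and 0.333 after adjustment over the 4 pairs compared. The 95% intervals of these gaps are t intervals from the SD of the 3 differences, not limma's. They rest on another model than the permutation test. The pairs were chosen with these values known, so an interval that leaves out 0 is no independent evidence.

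Pax2, the paired-box factor of both mesenchyme and ureteric bud, had 0.16, 0.64 and 0.084 on arrays 1, 2 and 3. Eya1, a co-activator for homeobox factors such as Six2 that is needed for the metanephric mesenchyme to form, had 0.083, 0.67 and 0.059. Cd24a, a lipid-anchored surface glycoprotein of immature and epithelial cells, had 0.44, 0.81 and 0.0043. In all 3 genes array 2 was the highest and array 3 the lowest. By the size of the mean they stood at percentiles 56.6, 53.1 and 71.0 of all genes. The mean of Pax2 was 0.29 ± 0.30, that of Eya1 0.27 ± 0.35 and that of Cd24a 0.42 ± 0.41, so each SD was about as large as its mean. The limma adjusted p values were 0.491, 0.545 and 0.406. Without array 2 the means were 0.12, 0.071 and 0.22. Without array 3 Cd24a had a mean of 0.63 and came under an unadjusted limma p of 0.05.

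Wt1 minus Pax2, a pair of mesenchymal factors that later part into podocytes and tubular epithelium, was 1.76, 0.89 and 1.97 on arrays 1, 2 and 3. The mean was 1.54 ± 0.57, with a 95% interval of 0.12 to 2.97 (exact permutation p = 0.25, adjusted 0.333). The gap had the same sign on 3 of 3 arrays and was narrowest on array 2, the array on which Wt1 was lowest and Pax2 highest.

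Eya4, a paralogue of Eya1, had 0.37, -0.019 and 0.0043 on arrays 1, 2 and 3. Array 1 alone stood away from 0, and the mean of 0.12 ± 0.22 was -0.0073 without it (limma adjusted p = 0.759). Sall1, the zinc-finger factor by which the mesenchyme attracts the ureteric bud, had -0.15, -0.14 and 0.25. Array 3 had the opposite sign to the other arrays, and the mean was -0.012 ± 0.224 (limma adjusted p = 0.979). Its sign turned without array 1, at 0.054, and without array 2, at 0.050. The 95% interval of the mean was -0.33 to 0.56 for Eya4 and -0.46 to 0.43 for Sall1.

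The gap between the Eya paralogues was smaller than its spread between arrays. Eya1 minus Eya4 was -0.28, 0.69 and 0.055 on arrays 1, 2 and 3, with a mean of 0.15 ± 0.49 (exact permutation p = 0.75, adjusted 0.75). The 95% interval ran from -1.07 to 1.38, and without array 2 the mean turned to -0.11.

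In the order of the means, Crym, Wt1, Cited1, Six2, Cd24a, Pax2, Eya1, Eya4, Sall1 and Osr1, the ranges of several neighbours over the arrays overlapped. The values of Crym, from 1.88 to 2.25, overlapped those of Wt1, from 1.53 to 2.06, and those of Wt1 overlapped those of Cited1, from 1.15 to 1.56. Six2 lay below all values of Cited1, and its lowest value of 0.71, on array 3, lay below the highest of Cd24a, 0.81, on array 2. Within each array, however, Six2 was above Cd24a, at 0.74, 0.89 and 0.71 against 0.44, 0.81 and 0.0043 on arrays 1, 2 and 3. Cd24a, Pax2, Eya1, Eya4 and Sall1 all overlapped their neighbours. Osr1, with a highest value of -0.49, lay below the lowest of Sall1, -0.15.

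The arrays ordered the members in a similar way, most closely by rank for arrays 1 and 2. Across the 10 members Pearson's r was 0.929 between arrays 1 and 2, 0.955 between arrays 1 and 3 and 0.863 between arrays 2 and 3. Across all 19635 genes it was 0.464, 0.166 and 0.162 for the same pairs. Spearman's rho across the members was 0.939, 0.766 and 0.778, against 0.520, 0.192 and 0.172 across all genes. These are correlations across genes, which are not independent replicates, and the values of one array share its hybridisation. The members were chosen with earlier results known, and their means ran from -0.57 to 2.02. Means of at least 1 in size were held by 3 of the 10, against 5.33% of all genes. Their correlations are therefore not on equal terms with those of all genes. All 3 arrays are positively correlated, and no sign was turned, although the labels mention a dye swap without naming the array. The member with the widest range was Cd24a, at 0.81, and the one with the narrowest was Osr1, at 0.12.

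**Figure D2:**
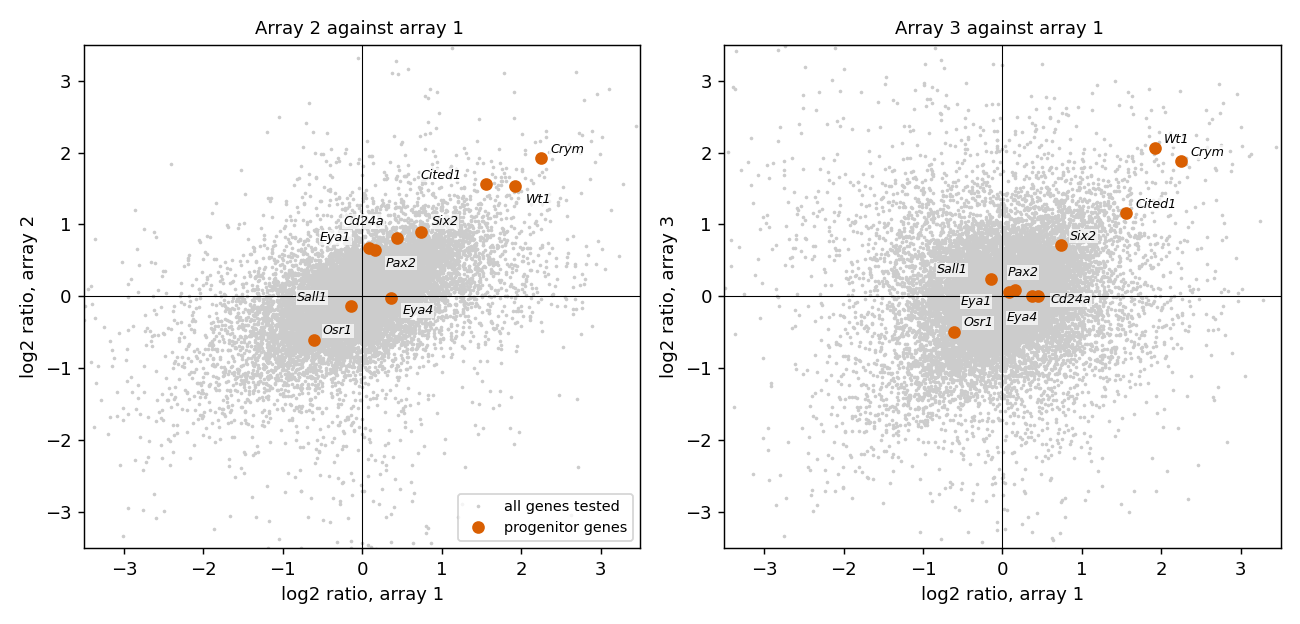
Log2 ratio on array 2 (left) and array 3 (right) against that on array 1, with all genes tested in grey and the 10 progenitor genes in orange; genes beyond the axes are not drawn. Crym, Wt1, Cited1 and Six2 lie at the upper right and Osr1 at the lower left in both panels, while Pax2, Eya1 and Cd24a are higher on array 2 than on array 3.

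Most members had an SD between arrays below that of the middle gene. Their median SD was 0.23, against 0.32 over all genes, and the SDs ran from 0.067 for Osr1 to 0.41 for Cd24a. Of the 10 members, only Cd24a and Eya1 had an SD above the median of all genes, at percentiles 61.1 and 53.2. Spot brightness was not used here, and its part in this spread was not tested.

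**Figure D3:**
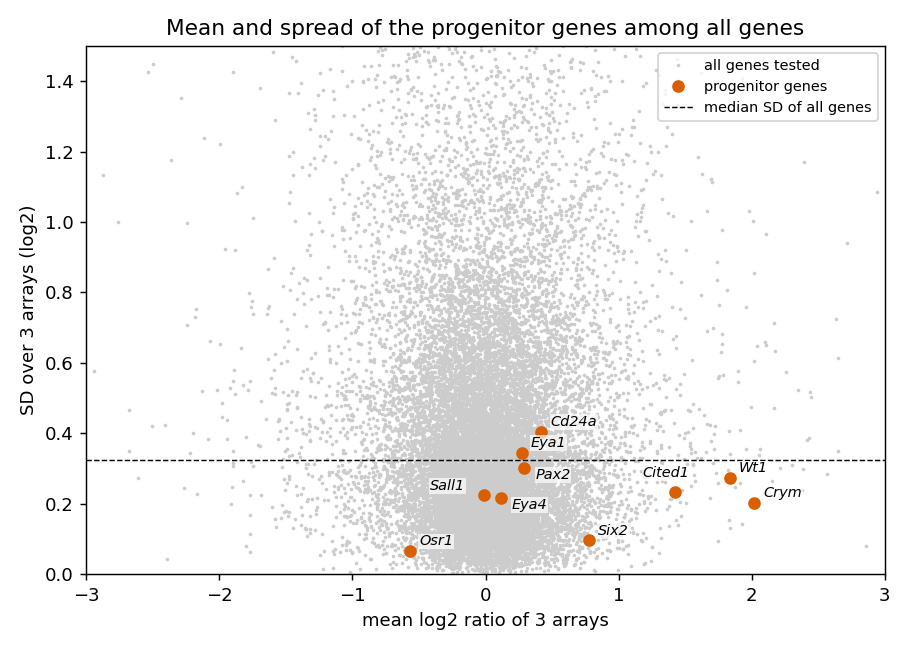
SD over 3 arrays (y axis, log2) against mean log2 ratio (x axis) for all genes tested (grey) and the 10 progenitor genes (orange), with a dashed line at the median SD of all genes; genes beyond the axes are not drawn. Crym, Wt1 and Cited1 combine means above 1 with SDs below that line, and Osr1 and Six2 have the smallest SDs of the members.

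Other genes known from the metanephric mesenchyme or the cap were read beside the members. Of 32 listed genes 30 were measured. Their median was 0.18, with 0.23, 0.093 and 0.38 on arrays 1, 2 and 3, where the members had 0.40, 0.74 and 0.17, so the order of the lists turned on array 3. In the list 22 genes had a positive mean, against 50.3% of all genes. Limma passed 0 of them over all genes, and 7 had an unadjusted p under 0.05, against 16.8% of all genes on both sides. All 7 were on the positive side, where the share of all genes was 8.99%. That count was 3 without array 1 and 11 without array 3. Bmper, which encodes a secreted BMP-binding protein, had 0.96, 1.503 and 1.52, a mean of 1.33 ± 0.32 (limma adjusted p = 0.109). Traf1, an adaptor of tumour necrosis factor receptors, had 0.80, 1.14 and 1.62, a mean of 1.19 ± 0.41. These were the genes of the list with means above 1, and Bmper was lowest on array 1, like Traf1.

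Robo2, the Slit receptor that limits where the bud grows out, stood at 0.73 ± 0.11 (mean log2 ratio ± SD, n = 3). Gdnf, the ligand that draws the ureteric bud towards the mesenchyme, stood at 0.68 ± 0.25. The others of the 7 were Pla2g7, a phospholipase that degrades platelet-activating factor, at 0.81 ± 0.50, and the homeobox genes Meox2 at 0.55 ± 0.10 and Hoxd10 at 0.54 ± 0.36. All 7 were positive on 3 of 3 arrays, which is no further evidence because they were picked by p on these same arrays. Of the 30 genes, 11 were positive on all 3 arrays, against 21.5% of all genes. Nearest 0 were Lypd1 at 0.030 ± 0.592, Hoxd11 at 0.058 ± 0.103 and Hoxc10 at 0.066 ± 0.25.

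Paralogues of the members showed no common side. Of 14 measured genes 7 had a positive mean (50.3% of all genes) and 7 a negative one, and the median was 0.029. At an unadjusted limma p under 0.05 there were 2 (16.8% of all genes), with 0 past the adjusted threshold. Both belonged to the Cited family of co-regulators. Cited2 had 0.90, 1.01 and 0.88, a mean of 0.93 ± 0.067 on the same side as Cited1 (limma adjusted p = 0.112). Cited4 had -0.97, -0.50 and -1.54, a mean of -1.002 ± 0.520 on the opposite side (limma adjusted p = 0.187). The arrays of Cited1 and Cited2 did not overlap those of Cited4. Nearest 0 were Sall3 at -0.030 ± 0.392, Six4 at 0.088 ± 0.488 and Eya3 at -0.11 ± 0.58, and each of these 3 had arrays of both signs. Osr2, the paralogue of Osr1, stood at 0.14 ± 0.52. Six4, Osr2 and Pax8 are in this list and in that of other progenitor genes.

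Several members are also expressed outside the cap, so lists of other cell types were read beside them. The values are mean log2 ratios over 3 arrays. The genes named as first by p are those with the smallest limma p of each list, which are not always those with the largest means. Limma passed 0 genes of these 8 lists over all genes, and the part of any of these cell types in the members' ratios was not tested. Of 10 measured podocyte genes 8 were positive, against 50.3% of all genes, with a median of 0.15. By p the first were Tcf21, a factor of podocyte and stromal precursors, at 1.57 ± 0.26 and Foxc2 at 0.69 ± 0.33. Among these Nphs1, which encodes nephrin of the slit diaphragm, stood at 0.17 ± 0.23, below Wt1 at 1.84. Of 13 ureteric bud genes 8 were positive, against 50.3% of all genes, with a median of 0.12. By p the first were Etv4, a target of Ret signalling, at 1.54 ± 0.35 and the calcium-binding Calb1 at 1.07 ± 0.083. The other 5 bud genes had a negative mean, among them Ret itself at -0.19 ± 0.26 and Etv5 at -0.46 ± 0.68.

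Over all genes 50.3% had a positive mean. Of 12 early nephron genes 8 were positive, with a median of 0.24. By p the first were Wnt4, the signal that turns mesenchyme into epithelium, at 1.84 ± 0.13 and the Notch target Heyl at 1.72 ± 0.36. Of 10 tubule genes 9 were positive, with a median of 0.36, and by p the first were Cdh16 and Clu, a secreted chaperone, at 1.54 ± 0.37. Of 15 renal stroma genes 13 were positive, with a median of 0.47, and by p the first were the proteoglycan gene Dcn at 2.15 ± 0.26 and the collagen gene Col1a1 at 1.19 ± 0.29. At an unadjusted p under 0.05 there were 3 podocyte, 3 ureteric bud, 5 early nephron, 4 tubule and 6 stroma genes, against 16.8% of all genes, and 1 of the early nephron genes and 1 of the tubule genes were on the negative side.

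The lists of red cells, of body wall and limb mesenchyme and of somite and muscle had negative medians, where over all genes 50.3% had a positive mean. Osr1 was negative as well, and any link of Osr1 to these lists was not tested. All 11 measured red cell genes had a negative mean, with a median of -0.91, and by p the first were Hbb-bh1 and Klf1, the factor of red-cell precursors, at -3.02 ± 0.29. Of 8 genes of body wall and limb mesenchyme 6 were negative, with a median of -0.89, and by p the first were Twist1 at -1.57 ± 0.13 and Prrx1 at -1.28 ± 0.17. Of 11 somite and muscle genes 10 were negative, with a median of -0.70, and by p the first were the skeletal actin gene Acta1 at -1.98 ± 0.45 and the somite factor Tcf15 at -1.08 ± 0.11. At an unadjusted p under 0.05 there were 6, 5 and 7 genes of these lists, all on the negative side, where the share of all genes was 7.83%.

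**Figure D4:**
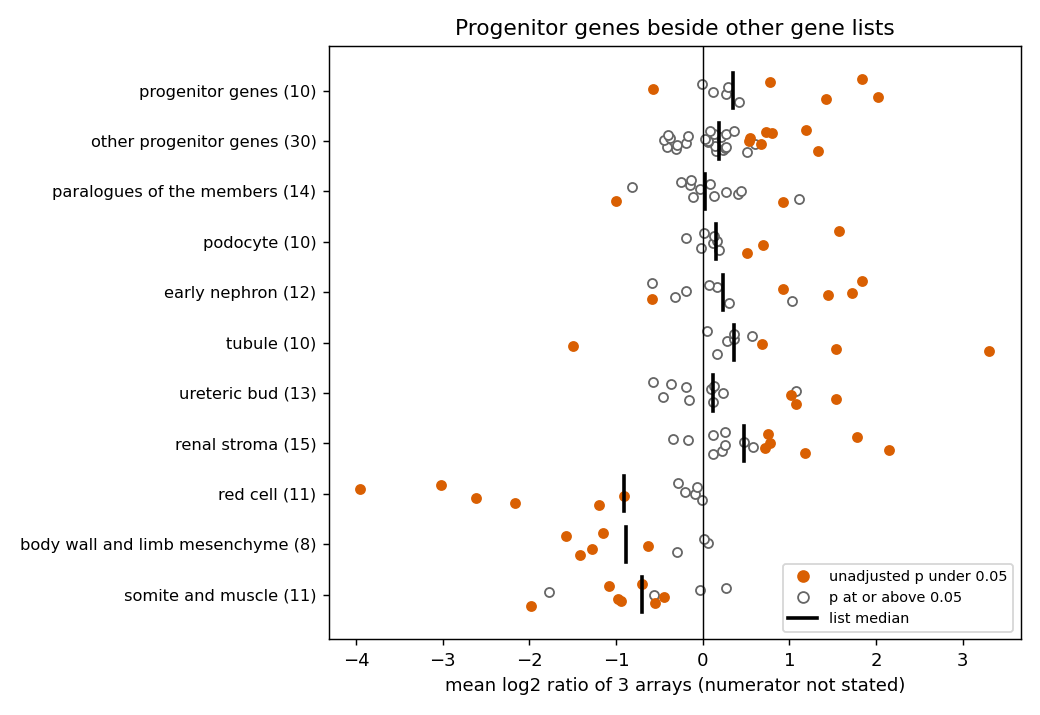
Mean log2 ratio of 3 arrays (x axis) for each measured gene of the progenitor genes and 10 other lists (rows, number of genes in brackets), with a vertical bar at the list median and filled points for an unadjusted limma p under 0.05. The 4 positive filled progenitor genes lie on the side of the medians of the kidney lists, which run from 0.12 to 0.47. Osr1 is negative, as are the medians of the red cell, body wall and muscle lists, which run from -0.91 to -0.70. The kidney lists hold negative genes too.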

How the data were processed

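The deposited values are log2 ratios of the channels of 3 2-colour arrays of the Compugen mouse oligo library, made by the authors with ImaGene 5.5, print-tip loess and a normalization between arrays in R, per the labels. The labels also give a lowess curve on log intensity that adjusted the control value. The order of these steps, the numerator and the dyes are not given in the sources used here. Loess centres the ratios near 0 and so removes any change shared by most genes, and amplification can alter single ratios. Precision is limited by there being 3 arrays.

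The table held 22702 spots, of which 883 were controls and not used. Among 21819 oligos, 16656 had 1 gene symbol, 137 several and 5026 none listed; oligos of those last kinds were tested under their own identifiers. A value on all 3 arrays was required (21094 oligos), oligos of a symbol were averaged, and 19635 genes were tested with limma 3.58.1 in R 4.3.3 (intercept only, eBayes, two-sided, Benjamini-Hochberg over all genes, threshold 0.05). The prior of the variance carried 2.40 degrees of freedom, and the median SE was 0.19. The procedure was tested on simulated data. Differences between members were taken within arrays. The sources used here name no batch, and no pair of arrays held identical values.

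The members, lists and tests were chosen with earlier results of these data known. Of the other progenitor genes and paralogues, those at an unadjusted p under 0.05 and the 3 nearest 0 were named by rule, and of each cell type list the 2 with the smallest p. Cdh16, Cubn, Hbb-bh1, Hbb-y, Nphs1, Ret, Etv5, Osr2 and Slc2a1 were named beside the rule with values known or seen. The alternatives were values on 2 arrays, single oligos, median centring, scale and quantile normalization, array weights, robust eBayes, the lowest ratio of 0.01 left out, only oligos with 1 symbol, each gene's own SD, and each array left out. Promoter sequences and their coordinates are from RefSeq (build GRCm38.p6); the deposited files name no genome build of their own.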

Additional observations from a re-analysis of the deposited data

How the results depend on the processing

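Under 13 alternatives, 0 members passed the adjusted threshold in any, and between 4 and 6 had an unadjusted p under 0.05; Osr1 was the member lost without replicate 1 and without replicate 2, and Cd24a the one added without replicate 3 and with array weights. Of 130 alternative means of members, 127 kept their sign. The exceptions were Eya4 without replicate 1 and Sall1 without replicates 1 and 2. With 1 replicate left out, the mean of Eya4 ran from -0.0073 to 0.19 and that of Sall1 from -0.14 to 0.054, with 0.050 without replicate 2. Without 1 replicate at a time, Eya1 minus Eya4 ran from -0.11 to 0.37. The other within-array differences kept their sign in all 13 alternatives. The 1 gene past the threshold over all genes was lost (0 genes) with scale normalization, with the lowest ratio left out and without any 1 replicate; the fits without a replicate have fewer degrees of freedom. Other progenitor genes at an unadjusted p under 0.05 numbered from 3 to 11 without 1 replicate, and paralogues numbered 1 with each gene's own SD; the cause was not tested. The median of the members ran from 0.20 to 0.51. Adjusted p of Six2 ran from 0.0915 to 0.540 and that of Osr1 from 0.127 to 0.616 (limma and the test with each gene's own SD). No paired analysis was possible because all arrays form 1 group, so there is no replicate block between groups; the pairing of the RNAs lies in each array's ratio itself.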

Other observations

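Array 3 differed most from the other arrays for several genes of the kidney mesenchyme that were picked here after their values were seen. This was not particular to them. Over all genes Pearson's r with array 3 was 0.166 for array 1 and 0.162 for array 2, against 0.464 between arrays 1 and 2. Among the picked genes, Itga8, the integrin subunit through which the mesenchyme responds to nephronectin, had log2 ratios of -1.19, -1.23 and 1.09 on arrays 1, 2 and 3. Fgf9, one of the growth factors that keep progenitors alive, had -0.71, -1.60 and 1.08, and Fgf20, which acts with it, had -0.32, -0.46 and 1.55. Eya2, a paralogue of Eya1, had 0.42, 0.32 and 2.60. Their SDs, from 1.12 for Fgf20 to 1.36 for Fgf9, were above the largest SD among the 10 progenitor genes, 0.41 for Cd24a. Limma's array weights were 1.23, 1.65 and 0.494 for arrays 1, 2 and 3. The cause was not tested.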
